A study of Mus musculus with 16 samples.

Results

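The genes described here are 36 genes of lysosomal hydrolases, their activators, lysosomal membrane proteins and 1 regulator of lysosomal genes, measured in the mouse hippocampus. They were chosen by symbol, from their known place in the lysosome, and the cathepsins were left out of the choice. Earlier results of these data were known when the choice was made. All 36 were found among the 55385 genes of the deposited count table, and all 36 were among the 16684 genes with enough counts to be tested. None of the 36 lies on mouse chromosome 16, which carries the segment that is duplicated in the Dp16 mouse.

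The 16 libraries were made from polyadenylated RNA of hippocampi of mice aged 5 months, with 4 libraries for each of 4 genotypes. The 5xFAD-Dp16 mice carry both the 5xFAD transgenes and the Dp16 duplication. The 5xFAD mice carry human amyloid precursor protein and presenilin transgenes with familial Alzheimer disease mutations, which the neuronal Thy1 promoter drives. The Dp16 mice, a model of Down syndrome, carry an extra copy of a segment of chromosome 16, and WT mice are wild-type C57BL/6J. All 4 5xFAD-Dp16 libraries are from males, while 5xFAD, Dp16 and WT have 2 female and 2 male libraries each. The labels number the samples of a genotype but do not state that each came from its own mouse, so a p-value here reflects how much the libraries vary, which may be technical variation.

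Totals ranged from 15838097 to 25037769 counts per library, and Pearson's r of log2 CPM (counts relative to the library total, scaled by the trimmed mean of M values, TMM) between libraries of a genotype ranged from 0.960 to 0.988. The hippocampal label was checked against 10 marker genes, none of which was at 0 in any library. Their summed level was lowest in WT replicate 4, at 454 CPM, against 1100 to 1390 CPM in the other WT libraries. It was also low in 5xFAD-Dp16 replicate 3 (671 CPM) and in 5xFAD replicates 2 and 4 (709 and 702 CPM), while the other 12 libraries were at 884 to 1390 CPM. Genes of the midbrain and hypothalamus stood apart in 5xFAD-Dp16 replicate 3, 5xFAD replicate 2 and WT replicate 4, and genes of the thalamus in 5xFAD replicate 4. In each of these 4 libraries the mean log2 level of the list lay more than 1 above its mean over libraries. The summed level of 10 choroid plexus genes ranged from 206 to 4680 CPM in 5xFAD-Dp16, from 81.9 to 5780 CPM in 5xFAD, from 73.3 to 3650 CPM in Dp16 and from 55.9 to 6660 CPM in WT.

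Lysosomes are acidic compartments in which hydrolases break down glycans, lipids and proteins that arrive by endocytosis, phagocytosis and autophagy. Most of their soluble enzymes are sorted there by a mannose phosphate tag, and membrane proteins form the boundary, carry cholesterol and ions across it and protect it from digestion. Many lysosomal genes share a promoter motif, called CLEAR, to which the transcription factor TFEB and its relatives bind, and loss of single lysosomal enzymes leads to storage diseases that often affect the brain. In the brain, microglia are rich in lysosomes and take up amyloid.

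Exact copies of core letters of the CLEAR motif, CACGTG and TCACGTGA, were looked for in the promoters, on both strands. Promoters were here the 250 bases before and 50 bases after each RefSeq transcription start (GRCm38.p6). Variants of the motif were not looked for, so a window without a match is not shown to lack the motif. A window was at hand for 33 of the 36 genes, all but Asah1, Galns and Npc1. The core E-box CACGTG was in at least 1 window of 10 of the 33 genes (30.3%), against 8.09% of all 27025 genes with a window and 7.15% of all 32851 windows. The 10 were Arsa, Cln3, Gaa, Gla, Glb1, Lamp1, Lgmn, Mcoln1, Naglu and Sgsh. The longer TCACGTGA, which contains the E-box, was in Cln3, Gla and Mcoln1 (9.09% of the 33, against 1.12% of all genes). A match describes the letters of a window and does not show a site in use. Shown are 30-base stretches of Cln3 and Mcoln1, as examples of the longer motif, of Lamp1, the most abundant transcript among the 10 per length in WT, and of Naglu and Lgmn, the genes among the 10 that passed in a comparison below. The sequences are from RefSeq, 5′ to 3′ on the strand of the gene, with the longest searched motif in capitals.
Cln3, chr7:126583340-126583369, minus strand: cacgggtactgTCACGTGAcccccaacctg
Mcoln1, chr8:3500462-3500491, plus strand: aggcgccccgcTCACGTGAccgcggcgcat
Lamp1, chr8:13159121-13159150, plus strand: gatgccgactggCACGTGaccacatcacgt
Naglu, chr11:101070009-101070038, plus strand: caaccttcaggtCACGTGgcccgaggtcgg
Lgmn, chr12:102439124-102439153, minus strand: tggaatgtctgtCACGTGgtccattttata

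The motif of Cln3 lay at positions -122 to -115 from the RefSeq start and that of Mcoln1 at -46 to -39. The E-box of Naglu lay at -73 to -68 and that of Lgmn at -49 to -44. Lamp1 held 4 E-boxes, of which the one printed lay at -28 to -23. By the GENCODE bounds of the genes, the printed motifs of Cln3, Mcoln1, Naglu and Lgmn lay inside the gene, and that of Lamp1 before it.

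In 5xFAD against WT, 5 of the 36 lysosomal genes rose and none fell. They were Cd68, Gusb, Hexa, Man2b1 and Npc2, with increases between 1.62-fold and 4.12-fold. The threshold for passing was an adjusted p of 0.05 (Benjamini-Hochberg, over all genes) in edgeR's quasi-likelihood test with terms for genotype and sex. Of all 16684 genes, 0.971% passed, 0.965% higher and 0.00599% lower. At an unadjusted p below 0.05 there were 14 of the 36 genes, against 8.85% of all genes. The median log2 fold change of the 36 genes was 0.165, against 0.02 over all genes tested, and 28 of the 36 had a positive sign, against 53.5% of all genes.

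In 5xFAD-Dp16 against Dp16, a comparison that shares no library with the one before, 6 of the 36 genes rose and none fell (0.845% of all genes passed, 0.827% higher and 0.018% lower). These were Cd68, Gusb, Naglu, Hexa, Npc2 and Lgmn. At an unadjusted p below 0.05 there were 17 of the 36, against 8.57% of all genes. The median was 0.245 on the log2 scale, against 0.0202 over all genes, and 30 of the 36 had a positive sign, against 53.4% of all genes. Cd68, Gusb, Hexa and Npc2 passed in both comparisons, which is 4 of the 5 genes that rose in 5xFAD against WT, 4 of the 6 that rose in 5xFAD-Dp16 against Dp16, and 11.1% of the 36, against 0.599% of all genes tested. A positive sign in both was found for 27 of the 36 genes (75%), against 38.6% of all genes.

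**Figure D1:**
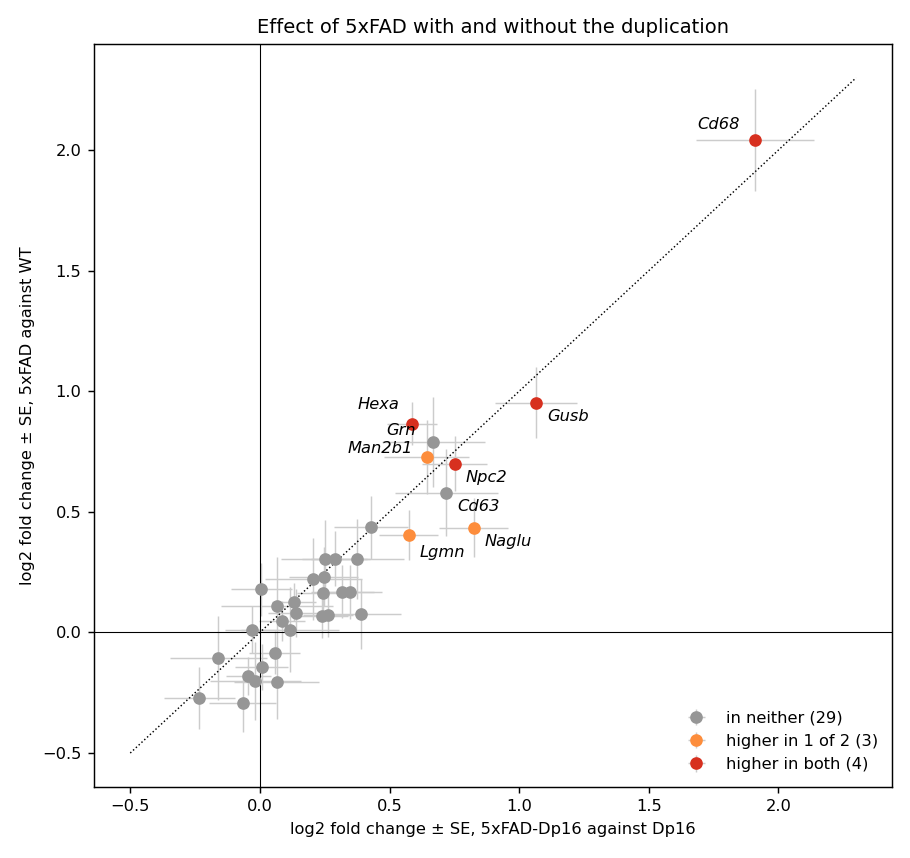
Log2 fold change ± SE of the 36 lysosomal genes in 5xFAD-Dp16 against Dp16 (horizontal axis) and in 5xFAD against WT (vertical axis), from 4 libraries per genotype, with a dotted line where both are equal. Red points passed in both comparisons (4 genes), orange points in 1 of them (3 genes: Man2b1, Naglu and Lgmn) and grey points in neither (29 genes), and Cd68 lies far above the others on both axes.

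Markers of microglia were higher in the same libraries. Of 18 microglial marker genes, 11 rose in 5xFAD against WT and 11 rose in 5xFAD-Dp16 against Dp16, with none lower, and medians of 0.83 and 0.912 on the log2 scale. Their summed level ranged from 1030 to 1260 CPM in 5xFAD-Dp16 and from 1110 to 1760 CPM in 5xFAD, against 605 to 638 CPM in Dp16 and 617 to 694 CPM in WT, and none of the 18 was at 0 in any library. The part of this in the changes of the lysosomal genes was not tested. In RNA of whole tissue, more cells of a type and more RNA of a gene per cell cannot be told apart. All 9 oligodendrocyte markers had a positive sign in both comparisons, with none passing (edgeR, 2 and 4 of the 9 at an unadjusted p below 0.05). All 12 thalamus markers had a positive sign in 5xFAD against WT (median 0.708), and all 10 choroid plexus markers (median 1.37) and all 9 tested midbrain and hypothalamus markers (median 1.98) in 5xFAD-Dp16 against Dp16, with none passing in edgeR (3, 0 and 3 at an unadjusted p below 0.05). Of the 10 hippocampus markers, 10 had a negative sign in 5xFAD-Dp16 against Dp16 (median -0.296) and 9 in 5xFAD against WT (median -0.139), with none passing in edgeR and 0 at an unadjusted p below 0.05 in either. Of 9 astrocyte markers, 1 rose in each comparison, Gfap, an intermediate filament of reactive astrocytes (log2 1.43 ± 0.143, edgeR adjusted p = 2.32e-05, in 5xFAD against WT, and 1.29 ± 0.153, adjusted p = 0.000205, in 5xFAD-Dp16 against Dp16). Of the 9 astrocyte markers, 3 had a negative sign in 5xFAD against WT (median 0.0776) and 4 in 5xFAD-Dp16 against Dp16 (median 0.0415). Of 10 neuron markers, 7 had a negative sign in each comparison (medians -0.161 and -0.163), with none passing in edgeR. The part of tissue content in the results was not tested beyond the counts that follow.

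Counts were taken again without the 4 libraries that stood apart in midbrain, hypothalamus or thalamus genes. These were 5xFAD replicates 2 and 4, 5xFAD-Dp16 replicate 3 and WT replicate 4, so 5xFAD kept replicates 1 and 3 alone. Of the 36 lysosomal genes, 7 rose in 5xFAD against WT and 8 in 5xFAD-Dp16 against Dp16. In that setting 180 and 168 of all 17187 genes tested passed, against 162 and 141 of 16684 in all libraries. Males alone were 10 libraries in all, with 2 each in 5xFAD, Dp16 and WT. With these the counts of lysosomal genes were 3 and 2, and 44 and 49 of all 17023 genes passed. With the 10 libraries of higher choroid plexus content alone, the counts were 2 and 0, and 59 and 15 of all 17112 genes passed. This left 2 libraries each in Dp16 and WT. In those 10 libraries the log2 fold changes in 5xFAD-Dp16 against Dp16 were 2.301 for Cd68, 1.35 for Gusb, 0.74 for Hexa, 0.78 for Naglu, 0.70 for Npc2 and 0.47 for Lgmn, against 1.91, 1.07, 0.59, 0.83, 0.75 and 0.57 in all libraries. In males, the 4 genes that lost their call in this comparison were at 0.50 (Hexa), 0.98 (Gusb), 0.84 (Naglu) and 0.58 (Lgmn).

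**Figure D2:**
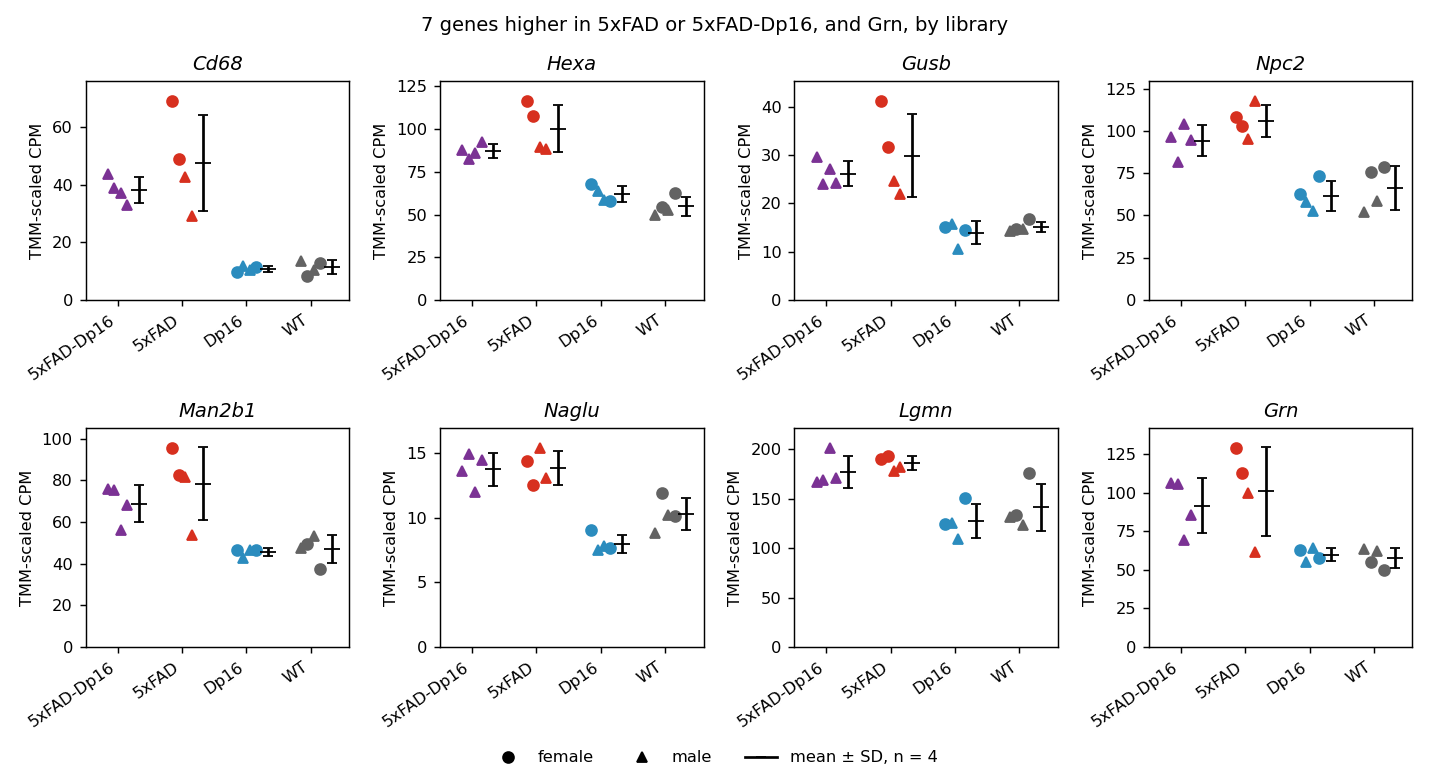
TMM-scaled CPM by library of the 7 lysosomal genes that rose in 5xFAD against WT or in 5xFAD-Dp16 against Dp16, and of Grn. Circles are female and triangles male libraries, the black mark and bar give mean ± SD (n = 4), and the axes start at 0. Cd68 is at 29.2 to 69.1 CPM in the 8 libraries with 5xFAD and at 8.34 to 13.7 CPM in the other 8.

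Among the membrane proteins and cholesterol carriers (9 genes), 2 rose in 5xFAD against WT and 2 in 5xFAD-Dp16 against Dp16, in each case Cd68 and Npc2. Cd68 encodes a heavily glycosylated membrane protein of late endosomes and lysosomes in macrophages and microglia (GRCm38 chromosome 11, 69664213 to 69666153, minus strand). It had 43.9, 39.0, 37.0 and 32.9 CPM in 5xFAD-Dp16, 69.1, 49.0, 42.8 and 29.2 CPM in 5xFAD, 9.55, 11.7, 10.2 and 11.4 CPM in Dp16, and 13.7, 8.34, 10.6 and 12.8 CPM in WT, in the order of the replicate numbers. Every library with 5xFAD lay above every library without it, and 5xFAD spread more widely than 5xFAD-Dp16. Cd68 was 4.12-fold higher in 5xFAD than in WT (log2 2.04 ± 0.212 SE, edgeR adjusted p = 3.48e-05). It was 3.76-fold higher in 5xFAD-Dp16 than in Dp16 (log2 1.91 ± 0.227, adjusted p = 0.000205).

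Npc2 encodes a soluble protein that binds cholesterol inside the lysosome and hands it to Npc1 (chromosome 12, 84754562 to 84773152, minus strand). It had 96.1, 81.7, 104.3 and 94.5 CPM in 5xFAD-Dp16, 108, 103, 95.1 and 118 CPM in 5xFAD, 62.6, 57.7, 52.3 and 73.0 CPM in Dp16, and 52.0, 75.4, 58.7 and 78.7 CPM in WT. The 8 libraries with 5xFAD were all above the 8 without it. The increase was 1.62-fold in 5xFAD against WT (log2 0.70 ± 0.115, edgeR adjusted p = 0.004) and 1.68-fold in 5xFAD-Dp16 against Dp16 (log2 0.75 ± 0.125, adjusted p = 0.00511). The call in 5xFAD-Dp16 against Dp16 ended without Dp16 replicate 3 (adjusted p = 0.0507).

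The other 7 of this group did not pass in either comparison in edgeR. Their log2 fold changes in 5xFAD against WT were between -0.08 for Mcoln1, a cation channel of the lysosomal membrane, and 0.58 for Cd63, a tetraspanin of late endosomes. In 5xFAD-Dp16 against Dp16 they were between 0.01 for Npc1, which exports cholesterol through the membrane, and 0.72 for Cd63. Cd63 had 79.2, 58.7, 96.1 and 90.2 CPM in 5xFAD-Dp16, 77.7, 98.5, 92.1 and 119 CPM in 5xFAD, 57.0, 44.7, 46.8 and 65.8 CPM in Dp16, and 47.2, 79.5, 62.1 and 75.7 CPM in WT. The Cd63 ranges overlapped in both comparisons (edgeR adjusted p = 0.242 in 5xFAD against WT and 0.145 in 5xFAD-Dp16 against Dp16). It passed in 5xFAD-Dp16 against Dp16 with DESeq2 (log2 0.70, adjusted p = 0.0284), and in both comparisons in edgeR with no low-count filter. Leaving out the filter raised the calls over all genes too, with 30883 genes tested in place of 16684. They went from 162 to 398 in 5xFAD against WT and from 141 to 620 in 5xFAD-Dp16 against Dp16. Lamp2, a main glycoprotein of the membrane that also serves chaperone-mediated autophagy, had a log2 fold change of 0.44 ± 0.131 in 5xFAD against WT (adjusted p = 0.212) and 0.43 ± 0.142 in 5xFAD-Dp16 against Dp16 (adjusted p = 0.293). It passed in 5xFAD against WT with no low-count filter (edgeR adjusted p = 0.0417). Its relative Lamp1 was at 0.16 and 0.24. Scarb2, the receptor that carries glucocerebrosidase to the lysosome, was at 0.13 in each, and Cln3, the membrane protein mutated in juvenile Batten disease, was at 0.08 and 0.39.

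Among the lipid hydrolases, their activators and progranulin (9 genes), 1 rose in each of the same comparisons, and it was Hexa. Hexa encodes the alpha subunit of beta-hexosaminidase, which degrades gangliosides and is deficient in Tay-Sachs disease (chromosome 9, 59539540 to 59565109, plus strand). It had 87.7, 82.5, 86.2 and 92.3 CPM in 5xFAD-Dp16, 117, 107, 89.4 and 88.1 CPM in 5xFAD, 68.1, 63.8, 58.3 and 57.8 CPM in Dp16, and 49.8, 54.5, 52.6 and 62.8 CPM in WT. All libraries with 5xFAD were above all without it. The log2 fold change was 0.87 ± 0.0887 in 5xFAD against WT (1.82-fold, edgeR adjusted p = 2.97e-05) and 0.59 ± 0.0951 in 5xFAD-Dp16 against Dp16 (1.5-fold, adjusted p = 0.0043). Exons of Hexa overlap those of Tmem202 on the opposite strand over 255 bases, 12.8% of the exonic length, and whether the counting used strand is not stated in the sources used here. Tmem202 averaged 22.0 counts per library, against 1490.1 for Hexa.

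Grn, which encodes progranulin, a secreted and lysosomal protein whose loss in humans causes frontotemporal dementia, did not pass in either comparison in edgeR. It had 106, 105, 69.0 and 85.4 CPM in 5xFAD-Dp16, 129, 113, 100.1 and 61.6 CPM in 5xFAD, 62.6, 54.9, 64.3 and 57.5 CPM in Dp16, and 63.4, 55.3, 62.2 and 49.7 CPM in WT. In 5xFAD replicate 4, Grn was below 2 of the WT libraries, and the other 3 5xFAD libraries were above all of WT. The log2 fold change was 0.79 ± 0.186 in 5xFAD against WT (edgeR adjusted p = 0.0613) and 0.67 ± 0.199 in 5xFAD-Dp16 against Dp16 (adjusted p = 0.205). With DESeq2 it passed in 5xFAD against WT (log2 0.78, adjusted p = 0.00855), and so it did in edgeR without the term for sex (adjusted p = 0.0415). Exons of Grn overlap those of Fam171a2 on the opposite strand over 68 bases (1.96% of the exonic length). Fam171a2 averaged 1720.1 counts per library, against 1513.0 for Grn, and whether the counting used strand is not stated. Without 5xFAD replicate 4, one of the libraries that stood apart, Grn passed in 5xFAD against WT (log2 1.00, edgeR adjusted p = 0.00138).

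The remaining 7 of the lipid group had log2 fold changes between -0.18 and 0.31 in 5xFAD against WT and between -0.04 and 0.38 in 5xFAD-Dp16 against Dp16. At the upper end were Asah1 (0.31 and 0.38), the acid ceramidase, and Lipa (0.31 and 0.29), the lysosomal acid lipase. Gm2a, the activator that presents gangliosides to hexosaminidase, was at 0.07 and 0.26. Galc, which splits galactosylceramide of myelin, was at 0.07 and 0.24. Arsa, the sulfatase of myelin sulfatide, was at 0.01 and -0.03, and Psap, the precursor of the saposin activators, was at -0.14 and 0.01. Smpd1, the acid sphingomyelinase, had 89.0, 101, 103 and 98.8 CPM in 5xFAD, against 114, 119, 105 and 107 CPM in WT. The 5xFAD libraries of Smpd1 were all below those of WT (log2 -0.18 ± 0.0796, edgeR adjusted p = 0.529), and in 5xFAD-Dp16 against Dp16 the ranges overlapped (log2 -0.04).

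Among the 14 hydrolases of glycans and mucopolysaccharides, 2 rose in 5xFAD against WT (Gusb and Man2b1) and 2 in 5xFAD-Dp16 against Dp16 (Gusb and Naglu). Gusb encodes beta-glucuronidase, which removes glucuronic acid from glycosaminoglycans (chromosome 5, 129989011 to 130003049, minus strand). It had 29.6, 23.9, 27.1 and 24.2 CPM in 5xFAD-Dp16, 41.3, 31.7, 24.6 and 22.0 CPM in 5xFAD, 15.2, 15.7, 10.5 and 14.4 CPM in Dp16, and 14.4, 14.8, 14.8 and 16.7 CPM in WT. The libraries with 5xFAD did not overlap with those without it. Gusb was 1.93-fold higher in 5xFAD than in WT (log2 0.95 ± 0.147, edgeR adjusted p = 0.0022) and 2.09-fold higher in 5xFAD-Dp16 than in Dp16 (log2 1.07 ± 0.159, adjusted p = 0.00198). With males alone the adjusted p was 0.22 in 5xFAD against WT and 0.0567 in 5xFAD-Dp16 against Dp16.

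Man2b1 encodes the lysosomal alpha-mannosidase (chromosome 8, 85083270 to 85098282, plus strand). It had 75.7, 75.2, 56.4 and 68.1 CPM in 5xFAD-Dp16, 95.5, 82.5, 81.6 and 53.7 CPM in 5xFAD, 46.4, 42.5, 46.3 and 46.6 CPM in Dp16, and 47.4, 49.7, 53.2 and 37.6 CPM in WT. The lowest 5xFAD library, replicate 4, was just above the highest WT library, and the 5xFAD-Dp16 libraries were all above those of Dp16. The log2 fold change was 0.73 ± 0.153 in 5xFAD against WT (edgeR adjusted p = 0.0284) and 0.64 ± 0.165 in 5xFAD-Dp16 against Dp16 (adjusted p = 0.111, and 0.0434 with DESeq2). The call in 5xFAD against WT ended without any of 5xFAD-Dp16 replicate 4, 5xFAD replicates 1, 2 and 3, and WT replicates 1, 2 and 4 (adjusted p up to 0.138).

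Naglu encodes alpha-N-acetylglucosaminidase, an enzyme of heparan sulfate breakdown (chromosome 11, 101070012 to 101077672, plus strand), and it is a gene with an E-box in the sequences above. It had 13.6, 14.9, 12 and 14.5 CPM in 5xFAD-Dp16, 14.4, 12.5, 15.4 and 13.1 CPM in 5xFAD, 9.05, 7.49, 7.81 and 7.69 CPM in Dp16, and 8.86, 11.9, 10.2 and 10.1 CPM in WT. The 5xFAD-Dp16 and 5xFAD ranges overlapped, and all 8 libraries were above the 8 without 5xFAD. Naglu was 1.77-fold higher in 5xFAD-Dp16 than in Dp16 (log2 0.83 ± 0.133, edgeR adjusted p = 0.00403), a call that was kept without any single library. In 5xFAD against WT the log2 fold change was 0.43 ± 0.121 (adjusted p = 0.154).

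The other 11 glycan hydrolases did not pass in either comparison. Their log2 fold changes ranged from -0.29 to 0.31 in 5xFAD against WT and from -0.23 to 0.35 in 5xFAD-Dp16 against Dp16. Idua, the iduronidase of heparan and dermatan sulfate, was at 0.31 and 0.25, Manba, the beta-mannosidase, at 0.22 and 0.21, and Glb1, the beta-galactosidase, at 0.17 and 0.35. Fuca1, the alpha-fucosidase, was at 0.17 and 0.32, and Gla, the alpha-galactosidase lacking in Fabry disease, at 0.11 and 0.07. Neu1, the sialidase, was at 0.05 and 0.09, and Galns, a sulfatase of keratan sulfate, at 0.01 and 0.12. A negative sign in both comparisons was found for Arsb (-0.11 and -0.16), Sgsh (-0.20 and -0.02), Ids (-0.27 and -0.23) and Gaa (-0.29 and -0.07). The first 3 are sulfatases of glycosaminoglycans and Gaa is the alpha-glucosidase that degrades glycogen. Ids ranged from 366 to 464 CPM in 5xFAD-Dp16, against 469 to 515 CPM in Dp16, and these ranges did not overlap (edgeR adjusted p = 0.688).

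Of the 3 protein and thioester hydrolases, none passed in 5xFAD against WT (edgeR, 1 of 3 at an unadjusted p below 0.05, with Lgmn passing in DESeq2) and 1, Lgmn, rose in 5xFAD-Dp16 against Dp16. Lgmn encodes legumain, an endopeptidase that cuts after asparagine and activates cathepsins (chromosome 12, 102394084 to 102439813, minus strand), and its E-box is printed above. It had 167, 169, 201 and 171 CPM in 5xFAD-Dp16, 190, 194, 178 and 182 CPM in 5xFAD, 125, 126, 109 and 151 CPM in Dp16, and 131, 134, 124 and 176 CPM in WT. The groups did not overlap in either comparison, and the highest Dp16 and WT libraries were both replicate 4. The log2 fold change was 0.57 ± 0.114 in 5xFAD-Dp16 against Dp16 (edgeR adjusted p = 0.0217) and 0.40 ± 0.105 in 5xFAD against WT (adjusted p = 0.108). The call ended without 5xFAD-Dp16 replicate 3 or 4 or Dp16 replicate 1, 2 or 3 (adjusted p up to 0.161), and without the term for sex (adjusted p = 0.109). Ppt1, the palmitoyl thioesterase, was at 0.23 in 5xFAD against WT and 0.25 in 5xFAD-Dp16 against Dp16, and Tpp1, a peptidase of the lysosome, at 0.08 and 0.14.

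Tfeb, the transcription factor that binds the CLEAR motif, was the least abundant of the 36 genes per length of transcript in WT. It had 12.1, 7.51, 9.98 and 9.68 CPM in 5xFAD-Dp16, 6.64, 8.86, 7.88 and 9.52 CPM in 5xFAD, 10.1, 9.47, 8.68 and 9.12 CPM in Dp16, and 9.83, 8.95, 8.77 and 10.5 CPM in WT. The ranges overlapped in every comparison. The log2 fold change was -0.21 ± 0.151 in 5xFAD against WT (edgeR adjusted p = 0.702) and 0.07 ± 0.164 in 5xFAD-Dp16 against Dp16 (adjusted p = 0.901). The counts measure the transcript of Tfeb and not its phosphorylation or its place in the cell, through which the factor is known to be controlled.

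**Figure D3:**
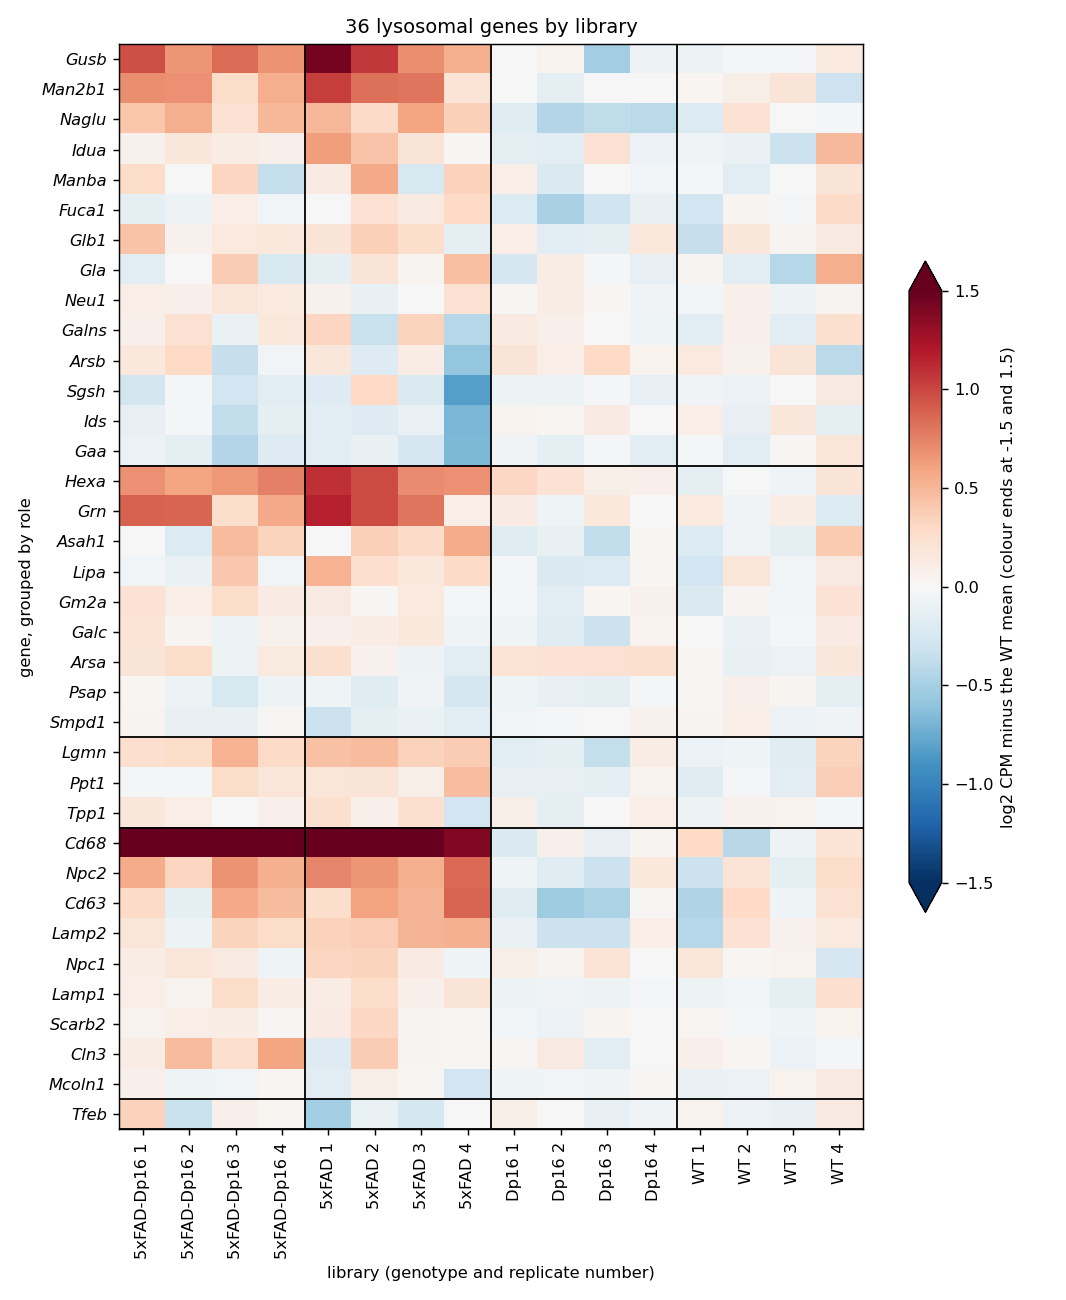
Log2 CPM minus the WT mean for each of the 36 lysosomal genes (down the page, in blocks by role: glycan hydrolases, lipid hydrolases and activators, protein and thioester hydrolases, membrane proteins, Tfeb) in each of the 16 libraries. Colour ends at -1.5 and 1.5, and Cd68 is beyond the upper end in 7 of the 8 libraries with 5xFAD, while most other genes stay pale.

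In 5xFAD, replicates 1 and 2 are female and replicates 3 and 4 male. The 2 female libraries were above the 2 male ones for Cd68, Hexa, Gusb, Man2b1, Lgmn and Grn. Npc2 and Naglu were highest in a male one. Replicates 2 and 4 of 5xFAD are also libraries that stood apart in midbrain, hypothalamus or thalamus genes. A difference between sexes was not tested. The share of all genes with such an order of the 5xFAD libraries was not counted, so no excess in females can be read from these genes. With males alone, Cd68, Hexa and Npc2 were kept in 5xFAD against WT (edgeR adjusted p = 0.0146, 0.029 and 0.0331), and Cd68 and Npc2 in 5xFAD-Dp16 against Dp16 (adjusted p = 0.00309 and 0.0457).

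Ranges of CPM without overlap were found for 8 genes above and 1 below in 5xFAD against WT, where all genes gave 3.18% above and 1.35% below. The 8 were Cd68, Gusb, Hexa, Lamp2, Lgmn, Man2b1, Naglu and Npc2, and the 1 was Smpd1. In 5xFAD-Dp16 against Dp16 there were 10 above and 1 below, where all genes gave 3.71% and 2.05%. The 10 were Cd68, Gm2a, Grn, Gusb, Hexa, Lamp1, Lgmn, Man2b1, Naglu and Npc2, and the 1 was Ids.

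The genes that rose were not the most abundant ones. Per length of transcript, as RPKM (counts relative to the library total and to the length of the gene) in WT, the 4 highest means were 566 ± 29.9 for Psap, 165 ± 31.7 for Lamp1, 112 ± 16.6 for Gaa and 95.1 ± 5.42 for Ids (SD, n = 4), and none of these 4 passed in either comparison. Lgmn came next with 70.6 ± 16.5 RPKM. The 5 genes that rose in 5xFAD against WT had WT means of 27.7 ± 4.66 RPKM (Hexa), 20.3 ± 5.20 (Npc2), 12.2 ± 1.27 (Man2b1), 9.04 ± 1.99 (Cd68) and 4.04 ± 0.542 (Gusb). In 5xFAD, Cd68 averaged 38.6 ± 12.4 RPKM and Hexa 51.5 ± 6.32 RPKM (SD, n = 4). The lowest means in WT were 2.38 RPKM for Tfeb and 2.46 RPKM for Cln3. Summed over the 36 genes, the level ranged from 4460 to 4860 CPM in 5xFAD-Dp16 and from 4230 to 4890 CPM in 5xFAD, against 4280 to 4500 CPM in Dp16 and 4490 to 4590 CPM in WT. The summed level overlapped between 5xFAD and WT and between 5xFAD-Dp16 and Dp16. Psap, with a mean of 1553 CPM in WT and 1407 CPM in 5xFAD, weighs most in this sum. The mean log2 level of the 36 genes, less its mean over libraries, weighs the genes alike. It was 0.08 to 0.142 in 5xFAD-Dp16 and 0.0138 to 0.219 in 5xFAD, against -0.19 to -0.101 in Dp16 and -0.176 to 0.0146 in WT. By this measure 5xFAD and WT overlapped, and 5xFAD-Dp16 and Dp16 did not.

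**Figure D4:**
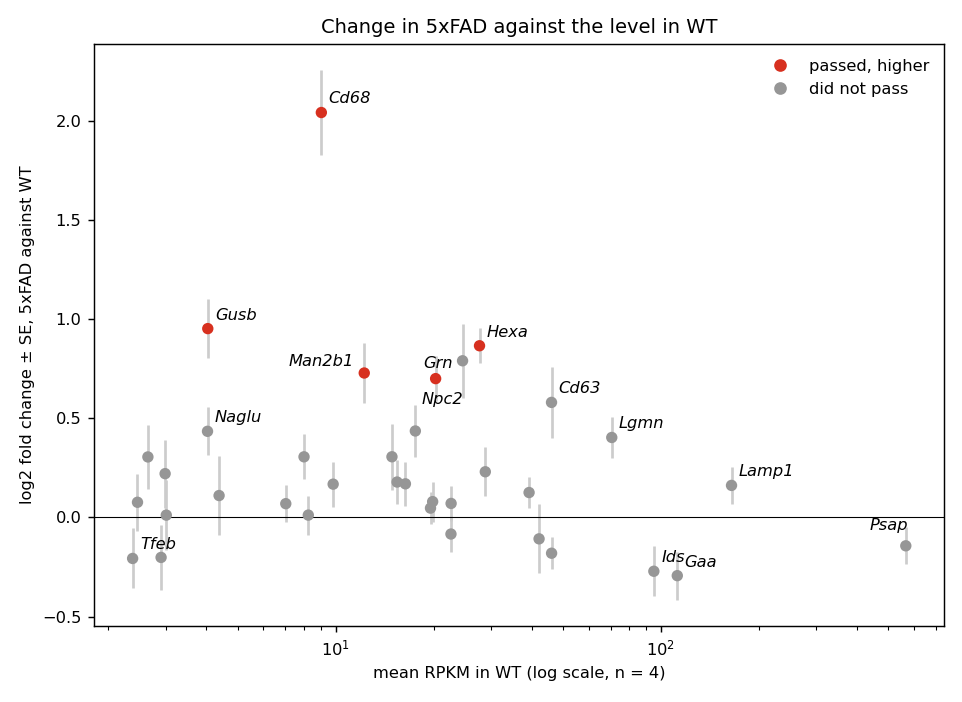
Log2 fold change ± SE in 5xFAD against WT (vertical axis) over mean RPKM in WT (horizontal axis, log scale, n = 4) for the 36 lysosomal genes. Red points passed and grey points did not, and the 5 red points lie between 4.04 and 27.7 RPKM, left of Psap, Lamp1, Gaa and Ids.

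In 5xFAD-Dp16 against WT, a comparison that shares libraries with both of those above, 4 of the 36 genes rose and none fell (1.01% of all genes passed, 0.983% higher and 0.03% lower), and they were Cd68, Hexa, Gusb and Npc2. The log2 fold changes were 1.83 ± 0.224 for Cd68 (edgeR adjusted p = 0.000294), 0.77 ± 0.0961 for Hexa (adjusted p = 0.000343), 0.94 ± 0.158 for Gusb (adjusted p = 0.00545) and 0.65 ± 0.126 for Npc2 (adjusted p = 0.0166). The call of Npc2 ended without 5xFAD-Dp16 replicate 1 or WT replicate 1 or 3 (adjusted p up to 0.136), and without the term for sex (adjusted p = 0.122). The median of the 36 genes was 0.167 on the log2 scale, against -0.00429 over all genes, and 29 had a positive sign, against 48.9% of all genes. There were 12 of the 36 at an unadjusted p below 0.05, against 6.38% of all genes. The ranges of 8 genes lay above those of WT without overlap and none lay below (3.08% and 1.29% of all genes). Without the 4 libraries that stood apart, 7 of the 36 rose, and 231 of all 17187 genes passed, against 169 of 16684 in all libraries.

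In Dp16 against WT, none of the 36 genes passed in edgeR, in DESeq2 or in limma-trend, where edgeR called 0.0839% of all genes, all of them higher. At an unadjusted p below 0.05 there were 3 of the 36, against 3.31% of all genes. In edgeR they were Naglu (log2 -0.36 ± 0.122, adjusted p = 0.99), Fuca1 (log2 -0.29 ± 0.11, adjusted p = 0.99) and Arsa (log2 0.22 ± 0.0982, adjusted p = 0.99). Naglu averaged 8.01 ± 0.705 CPM in Dp16 and 10.3 ± 1.25 CPM in WT (SD, n = 4), and 1 Dp16 library was above the lowest WT library. Fuca1 had 35.1, 28.9, 32.9 and 37.4 CPM in Dp16, against 33.2, 41.8, 39.6 and 49.4 CPM in WT. The Fuca1 ranges overlapped. Arsa was at 33.0 to 33.9 CPM in Dp16, against 26.4 to 32.2 CPM in WT, and was the gene among the 36 whose ranges did not overlap (1.37% of all genes lay above without overlap and 1.55% below). The 36 log2 fold changes ranged from -0.36 to 0.22 with a median of -0.0503, against -0.0133 over all genes, and 11 were positive, against 46.9% of all genes.

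Mice with the transgenes, with and without the duplication, were compared in 5xFAD-Dp16 against 5xFAD. None of the 36 passed there in edgeR, in DESeq2 or in limma-trend, and none had an unadjusted p below 0.05. By the same rules, 0.0539% of all genes passed, all of them higher, and 3.28% had an unadjusted p below 0.05. The smallest unadjusted p was that of Cln3 (log2 0.31 ± 0.156, edgeR adjusted p = 1), with 8.88, 11.4, 9.83 and 12.5 CPM in 5xFAD-Dp16, against 7.16, 10.7, 8.49 and 8.33 CPM in 5xFAD. These overlapped. Gm2a was next (log2 0.17 ± 0.096, edgeR adjusted p = 1), with 107, 99.1, 111 and 100.5 CPM in 5xFAD-Dp16, against 101, 93.7, 102 and 91.0 CPM in 5xFAD, which overlapped as well. The 7 genes that rose in a 5xFAD comparison had log2 fold changes of -0.21 ± 0.224 for Cd68, -0.10 ± 0.0956 for Hexa, -0.01 ± 0.159 for Gusb, -0.05 ± 0.122 for Npc2, -0.14 ± 0.166 for Man2b1, 0.03 ± 0.129 for Naglu and 0.03 ± 0.112 for Lgmn. The median of the 36 was 0.025, and 19 were positive, against 49.4% of all genes. Lamp2 was the gene among the 36 whose ranges did not overlap (1.33% of all genes lay above without overlap and 1.28% below). It had 98.2, 82.4, 109 and 105 CPM in 5xFAD-Dp16, against 110, 112, 124 and 125 CPM in 5xFAD (log2 -0.18 ± 0.138, edgeR adjusted p = 1).

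**Figure D5:**
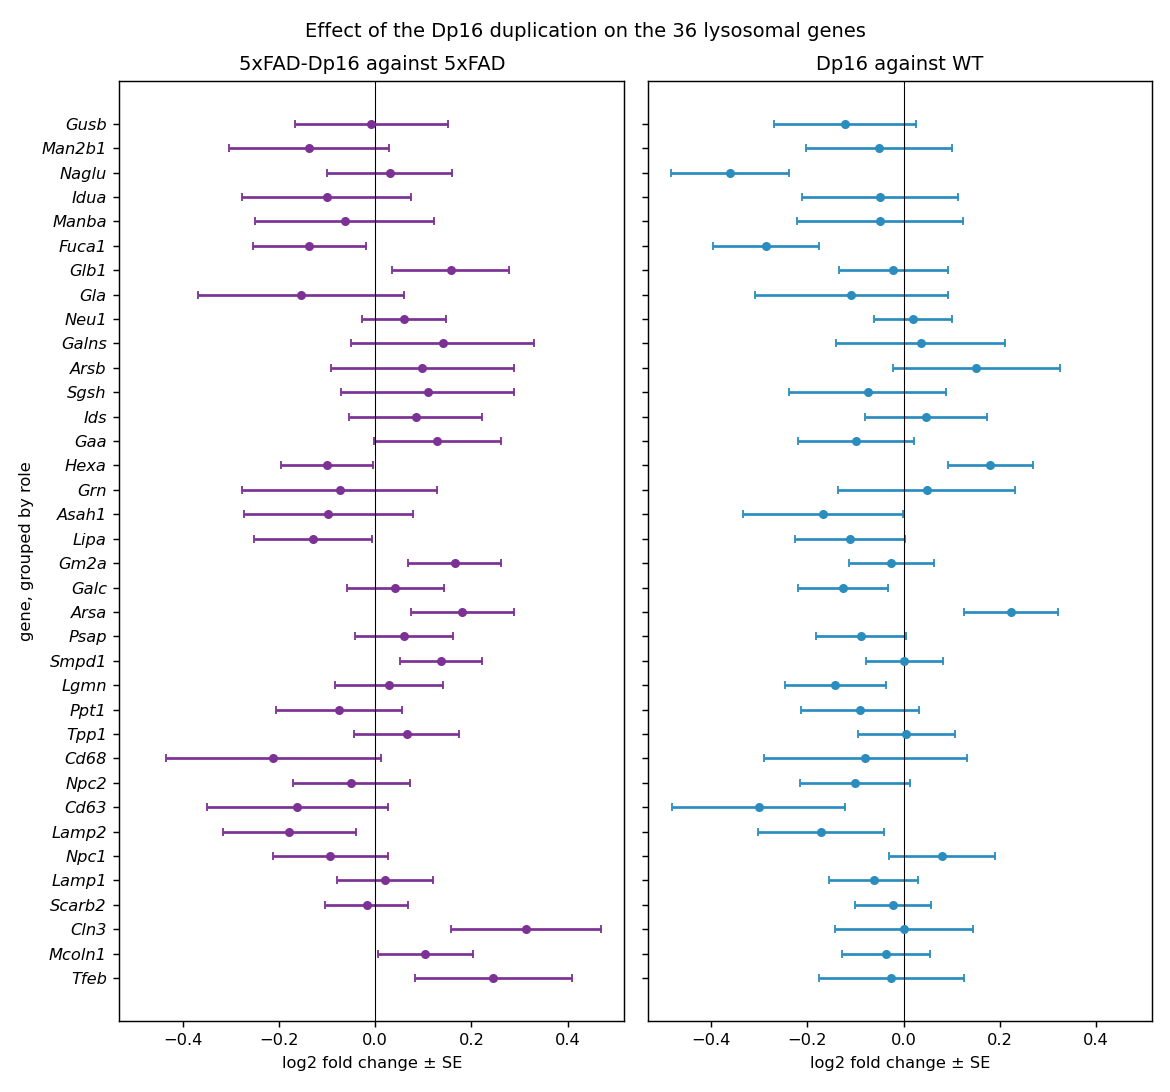
Log2 fold change ± SE of each of the 36 lysosomal genes in 5xFAD-Dp16 against 5xFAD (left) and in Dp16 against WT (right), with 4 libraries per genotype and genes in blocks by role. No gene passed in either panel, and the values lie between -0.36 and 0.31.

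Whether the effect of 5xFAD differed with the duplication was tested by the interaction, the log2 fold change in 5xFAD-Dp16 against Dp16 minus that in 5xFAD against WT. None of the 36 genes, and 0% of all genes, passed in edgeR, and none of the 36 passed in DESeq2 or limma-trend. At an unadjusted p below 0.05 there were 2 of the 36, against 1.99% of all genes. Naglu had a positive difference (log2 0.39 ± 0.178, edgeR adjusted p = 1). Hexa had a negative one (log2 -0.28 ± 0.13, edgeR adjusted p = 1). With 4 libraries per genotype and no female 5xFAD-Dp16 library, these values do not show that the effects were equal.

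The genes with an E-box in the promoter were set beside those without. In 5xFAD against WT, the 10 genes with an E-box had a median log2 fold change of 0.0936 and none of them passed in edgeR, while the 23 genes with a window and no E-box had a median of 0.221 and 5 passed. In 5xFAD-Dp16 against Dp16 the medians were 0.155 for the 10 genes, of which Naglu and Lgmn passed, and 0.253 for the 23, of which 4 passed. The ranges of the 10 and the 23 overlapped, at -0.293 to 0.434 against -0.271 to 2.04 in 5xFAD against WT. In 5xFAD-Dp16 against Dp16 they were -0.0661 to 0.826 against -0.233 to 1.91. The difference between the 10 and the 23 was not tested. Cln3, Gla and Mcoln1, which hold the longer motif, had log2 fold changes of 0.08, 0.11 and -0.08 in 5xFAD against WT.

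Other parts of the lysosomal system were described by lists that hold none of the 36 genes. The cathepsins, the proteases of the lysosome, had 8 of 12 tested genes higher in 5xFAD against WT and 7 of 12 in 5xFAD-Dp16 against Dp16, with medians of 0.624 and 0.76 on the log2 scale. Ctss, a protease of microglia and other myeloid cells, rose by 1.60 and 1.32 (edgeR adjusted p = 3.51e-07 and 9.97e-06). Ctsd, the main aspartic protease, rose by 1.32 and 1.31, and Ctsz by 1.32 and 1.34. Ctse, another aspartic protease, passed in both with 12 to 30 counts per library in 5xFAD-Dp16 and 20 to 39 in 5xFAD, against 0 to 2 in Dp16 and 0 to 1 in WT.

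Of 22 other hydrolases and cofactors, 2 rose in each comparison, among them Pld4. Pld4, a nuclease of endolysosomes in microglia, rose by 0.80 ± 0.141 on the log2 scale in 5xFAD against WT (edgeR adjusted p = 0.00747) and by 0.90 ± 0.153 in 5xFAD-Dp16 against Dp16 (adjusted p = 0.00632). Ifi30, a thiol reductase, was at 0.78 and 0.95 and Dnase2a, the acid nuclease, at 0.86 and 1.04, and neither passed.

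Of 29 other membrane proteins and transporters, 3 rose in 5xFAD against WT and 4 in 5xFAD-Dp16 against Dp16. Slc11a1, a metal ion transporter of phagocyte lysosomes, rose by 2.18 ± 0.189 and 2.67 ± 0.215 on the log2 scale (edgeR adjusted p = 4.51e-06 and 4.57e-06). Slc15a3, a transporter of histidine and peptides, rose by 2.27 and 2.15, and Laptm5, a membrane protein of blood-lineage cells, by 1.05 and 1.04. Tpcn2, a channel of the lysosomal membrane, passed in 5xFAD-Dp16 against Dp16 (log2 1.80, adjusted p = 0.0471) and not in 5xFAD against WT (log2 0.47, adjusted p = 0.701). Gpnmb, a glycoprotein of phagocytes, was at 1.07 and 0.91 and did not pass.

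The lists of acidification, sorting and control held no gene that passed in either comparison in edgeR. There were 19 subunits of the proton pump (V-ATPase), with 3 and 1 at an unadjusted p below 0.05 in 5xFAD against WT and in 5xFAD-Dp16 against Dp16. Tcirg1, a pump subunit of osteoclasts and immune cells, was at 0.54 and 0.81 on the log2 scale. Atp6v0c, which builds the membrane ring, was at -0.20 and -0.12. The 21 genes of enzyme sorting had 1 and 0 at an unadjusted p below 0.05, which was Nagpa, the enzyme that uncovers the mannose phosphate tag (log2 0.39 in 5xFAD against WT). The 23 genes of the TFEB relatives and their control by the kinase complex mTORC1 had 0 and 0. The 24 autophagy genes had 1 and 0, with Atg13 of the initiation complex at -0.26 and -0.15. The medians of these lists were between -0.0602 and 0.0222 on the log2 scale in both comparisons.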

How the data were processed

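For 16 hippocampal libraries, 4 per genotype, the deposited values are raw counts per gene and RPKM values made by the authors. The submitters' processing notes name HISAT2 (2.1.0), HTSeq (0.6.1), SAMtools (1.5), FastQC (0.11.5) and bcl2fastq, and the build GRCm38. In 17872 genes checked, the deposited RPKM was the count divided by the library total and by 1 fixed length per gene, to a relative spread of at most 5.11e-15. Libraries are strand-specific per the labels' protocols, and whether the counting used strand is not stated in the sources used here.

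The deposited counts were tested with edgeR (4.0.16, R 4.3.3). Its default filter left 16684 genes, libraries were scaled by TMM, and a robust quasi-likelihood model with genotype and sex was fitted to all 16 libraries. The sex term assumes for 5xFAD-Dp16, which has no females, the effect seen in the others. The threshold was 0.05 for the p adjusted by Benjamini-Hochberg over all genes, and SEs follow from the test statistic. The steps were tested on simulated data. Alternatives were DESeq2 version 1.42.0, limma-trend (limma version 3.58.1, prior count 2), no low-count filter, no sex term, the replicate number as a block, males alone, leaving out libraries by tissue content and leaving out each library. The genes and lists were chosen with earlier results of these data known. Library values are given for genes that passed in either 5xFAD comparison, for the next 2 by p in 5xFAD against WT, for the 2 smallest p in each comparison of the duplication and in the interaction, for Tfeb, and for Cd63, Smpd1, Ids, Arsa and Lamp2, which were added after their values were seen. Of each other list up to 4 genes with the smallest p in 5xFAD against WT were named, except 1 gene that is not reported here, and Tpcn2 was added after its values were seen. Gene positions and overlaps are from GENCODE M21, and promoter sequences from RefSeq (GRCm38.p6). CPM values rest on 15838097 to 25037769 counts per library.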

Additional observations from a re-analysis of the deposited data

Results flagged for a closer look

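In each genotype, the highest and the lowest of the 4 libraries were compared with the rest for each of the 36 genes, and a library stood apart when the share of the whole range taken by its gap to the nearest other exceeded Dixon's 95% critical value. This held in 4 of 144 sets of 4 libraries, and chance gives about 5% of such sets. Lgmn was at 201.341 CPM in 5xFAD-Dp16 replicate 3, against 167 to 171 CPM in the other 3. Lipa was at 30.8976 CPM in the same library, against 21.7 to 22.7 CPM in the other 3, and this is a library that stood apart in midbrain and hypothalamus genes. Man2b1 was at 42.5367 CPM in Dp16 replicate 2, the lowest, against 46.3 to 46.6 CPM in the others. Ppt1 was at 101.38 CPM in Dp16 replicate 4, against 89.3 to 90.3 CPM in the others. Without 5xFAD-Dp16 replicate 3, Lgmn in 5xFAD-Dp16 against Dp16 had a log2 fold change of 0.51 (edgeR adjusted p = 0.0573).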

How the results depend on the processing

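Each count was recomputed under 25 other settings. Of 36 lysosomal genes, 5 passed in 5xFAD against WT, and 8 did with no low-count filter, 3 with males alone and 2 with the choroid-plexus-rich libraries alone. In 5xFAD-Dp16 against Dp16, 6 passed, and 2 did with males and 0 with the choroid-rich libraries, where the log2 fold changes of the 6 were 0.47 to 2.301, against 0.57 to 1.91 in all libraries. In 5xFAD-Dp16 against WT, 4 passed, and 7 did without the 4 libraries of midbrain, hypothalamus or thalamus content and 1 with the choroid-rich ones. Males alone and the choroid-rich set keep 10 of 16 libraries, and the set without 4 libraries keeps replicates 1 and 3 alone of 5xFAD. The choroid-rich set and the set without 4 libraries were added after the data were seen. Leaving out 1 library at a time gave 4 to 6, 4 to 8 and 3 to 5 genes in these 3 comparisons and 0 in the others. Over all genes, leaving out 1 library gave 109 to 189 in 5xFAD against WT, 76 to 146 in 5xFAD-Dp16 against Dp16, 80 to 172 in 5xFAD-Dp16 against WT, 3 to 17 in Dp16 against WT, 0 to 11 in 5xFAD-Dp16 against 5xFAD, and 0 in the interaction.

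For all genes, the counts in 5xFAD against WT (162) were 292 with DESeq2, 398 with no filter, 44 with males and 59 with choroid-rich libraries. In 5xFAD-Dp16 against Dp16 (141) they were 269, 620, 49 and 15, and in 5xFAD-Dp16 against WT (169) they were 267, 355, 61 and 32. In Dp16 against WT (14) they were 38, 210, 0 and 0, with 23 without the 3 libraries of midbrain or hypothalamus content and 39 without the 4. In 5xFAD-Dp16 against 5xFAD (9) they were 27, 75, 0 and 0, with 17 without a sex term. The interaction (0) had 128 with no filter. Without the 4 libraries, 180 genes passed in 5xFAD against WT, 168 in 5xFAD-Dp16 against Dp16 and 231 in 5xFAD-Dp16 against WT. The causes were not tested. Of 725 recomputed values of named genes, 665 kept their call, 38 lost it, 22 gained it and none changed direction as called.

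Deviations of same-numbered libraries had r from -0.354 to 0.354, with 9 of 24 over 0.1, and those of unlike number had r from -0.485 to 0.487. The pair at 0.487, WT replicate 4 and 5xFAD-Dp16 replicate 3, both stood apart in midbrain and hypothalamus genes. As tissue content enters these values, they cannot settle whether the replicate numbers pair the samples. With the number as a block, 6 of the 36 genes passed in 5xFAD against WT, with Grn added (adjusted p = 0.0309), 6 in 5xFAD-Dp16 against Dp16 and 4 in 5xFAD-Dp16 against WT, and 0 genes of all passed in 5xFAD-Dp16 against 5xFAD. The least abundant of the 36 genes, such as Tfeb with 104 to 231 counts per library, have the widest counting error.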
